A study of Homo sapiens with 9 samples.

Results

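The 5 genes DUSP6, ERRFI1, DUSP4, SPRY2 and SPRY4 encode inhibitors that act on receptor tyrosine kinases or on the RAS-ERK (MAPK) cascade downstream of them, and the peaks of transcription factors around them were read from 5 chromatin immunoprecipitation (ChIP-seq) peak lists. The genes and the stretches around them were selected on the peak lists themselves, by the number and position of peaks in dense stretches of the genome. Every number of peaks given here for these stretches is therefore a description with no test. The members are the peaks of all 5 lists in 5 windows of the human genome build hg18, 1.96 Mb in all. The windows held 353 of 125904 peaks, and they held 156 of 59685 NKX2-1 regions, which are the NKX2-1 peaks of all lists merged where they overlap.

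The study mapped NKX2-1 in 3 cell lines of lung adenocarcinoma, H3122, H1819 and H2087 (each with the prefix NCI-), which carry an amplification of NKX2-1 and were grown in RPMI1640 with serum, with no further treatment in the labels. NKX2-1 was precipitated with the Bethyl Laboratories antibody BL4000 from H3122 (2 lists, replicates 1 and 2), from H1819 (1 list) and from H2087 (1 list). FOXA1 was precipitated with the Abcam antibody ab23738 from H3122 (1 list). All lists come from lines with the amplification, so none serves as a sample without NKX2-1, and 4 input libraries were not analysed here.

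NKX2-1 is a homeodomain factor of lung and thyroid development, and FOXA1 is a forkhead factor that opens chromatin in endodermal tissues such as the airway. Growth factor receptors such as EGFR pass their signal through RAS, RAF and MEK to the kinase ERK, and ERK activity in turn raises the transcription of genes that damp the signal. The feedback acts at each level. ERRFI1, also called MIG6, binds the kinase domain of EGFR family receptors and inhibits it. The Sprouty proteins SPRY2 and SPRY4 interrupt signalling between the receptors and RAF. DUSP6 removes phosphates from ERK in the cytoplasm, and DUSP4 does so in the nucleus. The pathway is often active in lung adenocarcinoma.

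Peaks lay close to the starts of DUSP6 and ERRFI1 in most lists, so the 250 bases before the annotated start of these genes are shown. They come from RefSeq, build GRCh38.p14, minus strand, 5′ to 3′, at chr12:89352502-89352751 for DUSP6 and chr1:8026310-8026559 for ERRFI1. The capitals mark a match to a forkhead motif.

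DUSP6: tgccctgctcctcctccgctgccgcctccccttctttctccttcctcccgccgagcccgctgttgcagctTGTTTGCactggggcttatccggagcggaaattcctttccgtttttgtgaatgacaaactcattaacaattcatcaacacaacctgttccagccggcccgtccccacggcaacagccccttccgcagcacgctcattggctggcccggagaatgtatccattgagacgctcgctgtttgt

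ERRFI1: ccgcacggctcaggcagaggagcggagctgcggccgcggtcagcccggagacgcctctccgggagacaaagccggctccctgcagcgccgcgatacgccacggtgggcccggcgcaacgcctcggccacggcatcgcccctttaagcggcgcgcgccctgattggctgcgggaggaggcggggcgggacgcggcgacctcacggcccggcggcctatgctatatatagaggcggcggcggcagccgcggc

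The table of promoters matched 4 of the 5 genes, all but DUSP4, with 3 promoters for SPRY2 and 1 for each other gene. The motifs CAAGTG (NKX2-1), TGTTTAC and TGTTTGC (forkhead), CCGGAAGT (ETS) and TGANTCA (AP-1) were searched on both strands. The match in capitals, TGTTTGC on the plus strand of the sequence as printed, starting 180 bases before the start of DUSP6, was the sole match in the promoters of these 4 genes. Among 35116 RefSeq promoters of the same length, 3.23% held TGTTTGC, 2.98% TGTTTAC, 9.50% CAAGTG, 3.42% CCGGAAGT and 6.57% TGANTCA. The GC content was 57.2% in the DUSP6 promoter and 75.2% in that of ERRFI1, against a median of 58% over all promoters. The peaks are on hg18 and the promoters on GRCh38, so whether a peak covers these bases was not tested.

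The lists differ in length, and replicate 1 of H3122 stands apart. It held 7469 peaks with a median width of 314 bp and scores down to 50, whereas the other lists held 13486 to 48071 peaks with median widths of 479 to 656 bp and scores from 60. The score is the value that MACS gave each peak. Its scale is not given in the sources used here, and scores are read only within a list, where a rank of 100% is the top. Read depth is not given either, so a number of peaks is set against the mean of its own list over the 3080.4 Mb of assembled chromosomes. That mean was 2.42 peaks per Mb in replicate 1, 15.6 in replicate 2, 4.38 in H1819, 4.69 in H2087 and 13.8 for FOXA1. Apart from the H3122 pair there were no replicates, and nothing in the labels says that this pair came from separate cultures. Intervals in the text are 95% intervals that cover counting error alone.

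Over the 5 windows together, the lists held 3.85 to 4.90 times as many peaks per Mb as on average. There were 20 peaks of H3122 replicate 1 (4.21-fold, 2.57 to 6.50), 139 of replicate 2 (4.55-fold, 3.82 to 5.37), 33 of H1819 (3.85-fold, 2.65 to 5.402) and 45 of H2087 (4.90-fold, 3.57 to 6.55). FOXA1 had 116 peaks (4.30-fold, 3.55 to 5.15). The 5 intervals overlap, and no order of the lists is drawn from the pooled density. The single genes differed far more than the pooled values, from 0 H2087 peaks around DUSP4 to 17.8 times the mean around ERRFI1. The peaks in the windows were also somewhat wider and higher scoring than their lists. The median width was 745 bp in the windows and 592 bp in the whole list for H2087, and 550 and 479 bp for H1819. The median score was 197 in the windows and 149.7 in the whole list for H2087, 189 and 124 for H1819, and 180.4 and 139 for FOXA1. For the H3122 NKX2-1 lists the medians were closer, at 148 in the windows and 137 in the whole list for replicate 2 and at 83.4 and 73.3 for replicate 1.

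**Figure D1:**
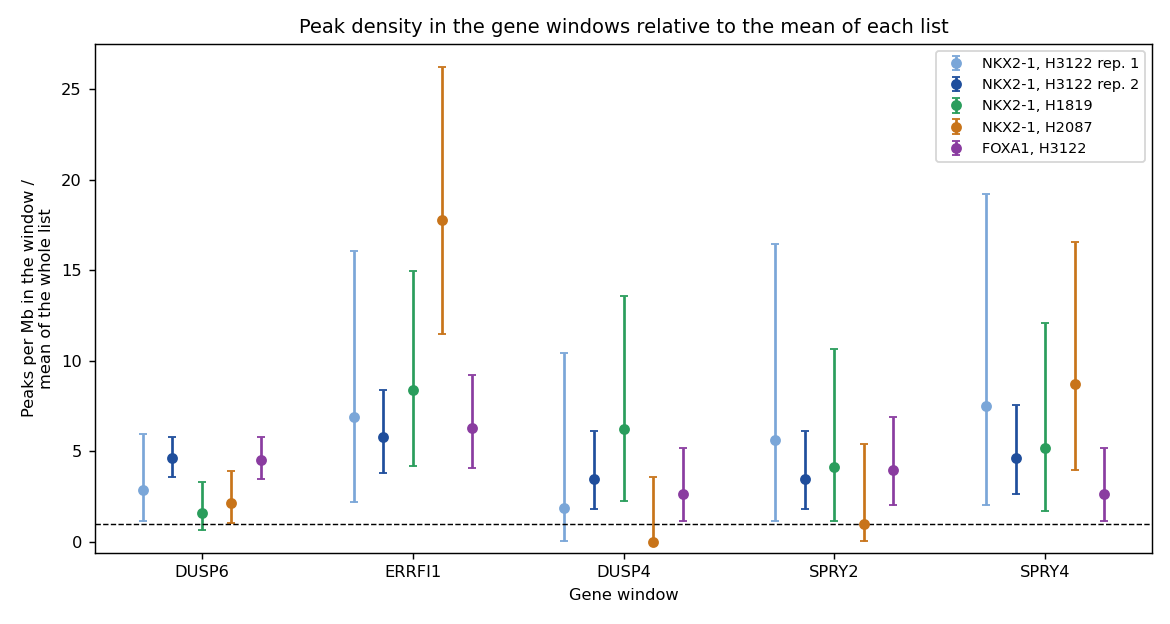
Peaks per Mb in each gene window divided by the mean of the whole list (vertical axis, linear) for the 5 lists; bars are exact 95% Poisson intervals of the number of peaks and the dashed line marks the list mean. The H2087 value at ERRFI1 (17.8) stands above all others, and the H2087 value at DUSP4 is 0.

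ERRFI1 acts at the receptor itself. Its window, chr1:7900000-8200000, was the only one of the 5 in which every list had more than 5 times its mean density. It held 5 peaks of H3122 replicate 1, 27 of replicate 2, 11 of H1819, 25 of H2087 and 26 of FOXA1. Relative to the list mean these numbers were 6.87-fold (2.23 to 16.04), 5.77-fold (3.80 to 8.39), 8.38-fold (4.18 to 14.99), 17.8-fold (11.51 to 26.2) and 6.29-fold (4.11 to 9.22) in the same order. The window was chosen on these peaks, so the intervals are not used to rank the lists. Of 10257 tiles of 300 kb over the genome, the share with at least as many peaks was 1.29% for replicate 1, 0.136% for replicate 2, 0.273% for H1819, 0.00975% for H2087 and 0.127% for FOXA1. For H2087 that share is a single tile, which also held 25 peaks.

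Peaks around ERRFI1 lay mostly on the upstream side, which is also the longer part of the window. The gene is on the minus strand, at about 7.994 to 8.009 Mb, rounded to 1 kb as for DUSP6, so that higher coordinates are upstream of its start. All 5 peaks of replicate 1 lay above 8.009 Mb, as did 20 of 27 peaks of replicate 2, 8 of 11 of H1819, 17 of 25 of H2087 and 21 of 26 of FOXA1; this side makes up 191 of the 300 kb. The next genes on the upstream side in the RefSeq order of GRCh38 are SLC45A1 and RERE, and those on the other side are PARK7 and TNFRSF9. Which gene a peak bears on was not tested. The nearest peak to the start was 0.670 kb upstream in replicate 1 (score 51.3, rank 2.78%), 1.19 kb in replicate 2 (score 197, rank 64.9%), 1.96 kb in H2087 (score 99.1, rank 31.7%) and 1.08 kb for FOXA1 (score 248, rank 70.5%). These 4 lists had a peak at the start, of low to middling rank. H1819 had none there, and its nearest peak lay 6.10 kb downstream of the start (score 257, rank 77.8%).

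The highest peaks at ERRFI1 lay 35.4 to 172 kb upstream. H2087 and FOXA1 peaked at the same place, chr1:8043744-8045427, with a score of 1616 in H2087 (rank 97.6%) and 2052 for FOXA1 (rank 98.8%). That region held replicate 2 at 521 and H1819 at 149, and no replicate 1 peak. Replicate 2 was highest 51.4 kb upstream, at 983 (rank 96.6%), in a region where H2087 scored 1387 and FOXA1 460.5 and where H1819 and replicate 1 had no peak. H1819 was highest 44.1 kb upstream, at 319.6 (rank 83.3%), where H3122 had peaks in both replicates and H2087 and FOXA1 had none. Replicate 1 was highest 172 kb upstream, at 139.99 (rank 88.6%), in a region of all 4 NKX2-1 lists. The 3 lines thus had peaks in the same window, but each NKX2-1 list had its highest peak at a different place.

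SPRY2 lies at about 79.81 Mb, a position rounded to 10 kb, and its window is chr13:79700000-79920000. With that rounding, a peak a few kb away cannot be placed inside or outside the gene. The window held 3 peaks of H3122 replicate 1, 12 of replicate 2, 4 of H1819, 1 of H2087 and 12 of FOXA1. Relative to the list mean these were 5.62-fold (1.16 to 16.4), 3.50-fold (1.81 to 6.11), 4.15-fold (1.13 to 10.64), 0.970-fold (0.0246 to 5.404) and 3.96-fold (2.05 to 6.92). Of 13989 tiles of 220 kb, 4.45% held at least as many peaks of replicate 1, 3.81% of replicate 2, 7.20% of H1819, 37.3% of H2087 and 2.35% of FOXA1. The sole H2087 peak, chr13:79813208-79813511, lay near the gene with a score of 83.1 (rank 23.2%), and replicate 2 (146.5) and FOXA1 (78.1) had peaks there too. The peaks nearest to the stated position were, in replicate 2, chr13:79806515-79806983 (121, rank 44.0%) and, for FOXA1, chr13:79807027-79807509 (96.8, rank 32.7%). Those of H1819 and replicate 1 were 79.1 and 61.3 kb away.

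The highest peak of each list but H2087 lay 61.1 to 98.1 kb below the gene position, toward NDFIP2, and H2087 had no peak in these regions. The highest peak of replicate 2 and that of FOXA1 were at one place, chr13:79748346-79749496, 61.1 kb from the gene position, with scores of 1828 (rank 99.1%) and 2219.6 (rank 99.1%). Replicate 1 had a peak there (185, rank 94.5%), and H1819 had none. H1819 was highest 98.1 kb away, at 798 (rank 96.0%), in a region that also held replicate 1 (69.3), replicate 2 (1059.6) and FOXA1 (839.7). Replicate 1 was highest 86.1 kb away, at 188, with replicate 2 (801) and H1819 (189) in the same region and no FOXA1 peak. On the other side, 79.1 kb above the gene position, H1819 had its nearest peak, also its second highest of the window (414, rank 88.3%), with FOXA1 (323) and replicate 2 (125) in the same place. All 4 H1819 peaks of the window overlapped replicate 2, 100% (51.0 to 100) against 53.4% of the whole H1819 list. With H2087 it was 0 of 4, 0% (0 to 49.0) against 22.8%. In its numbers of H1819 and H2087 peaks, a window like this is not rare in the lists. Of the 1007 tiles of 220 kb with at least 4 H1819 peaks, 35.6% held at most 1 H2087 peak. The neighbouring genes in RefSeq are NDFIP2 below and SLITRK1 above.

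SPRY4 lies at about 141.67 Mb, again rounded to 10 kb, in the window chr5:141570000-141790000. The window held 4 peaks of H3122 replicate 1, 16 of replicate 2, 5 of H1819, 9 of H2087 and 8 of FOXA1. Relative to the list mean these were 7.50-fold (2.04 to 19.2), 4.66-fold (2.66 to 7.57), 5.19-fold (1.69 to 12.1), 8.73-fold (3.99 to 16.6) and 2.64-fold (1.14 to 5.20). At least as many peaks were found in 1.55% of the 220 kb tiles for replicate 1, in 1.00% for replicate 2, in 4.08% for H1819, in 1.18% for H2087 and in 9.40% for FOXA1. All 5 lists had their highest peak of the window at one place, chr5:141575312-141576333, 94.2 kb below the gene position. The scores there were 273 in replicate 1 (rank 98.1%), 2117 in replicate 2 (rank 99.4%), 1100.45 in H1819 (rank 98.1%), 909.7 in H2087 (rank 93.6%) and 568 for FOXA1 (rank 88.1%). SPRY4 was the only gene of the 5 with such a common top region.

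Around SPRY4, H1819 and H2087 had most of their few peaks on opposite sides of the gene position. The RefSeq neighbours are NDFIP1 below and FGF1 above, and the common top region lies toward NDFIP1. H1819 had 4 peaks below and 1 above the gene position, and its nearest was 3.91 kb below (score 81.8, rank 25.8%). H2087 had 1 peak below and 8 above, and its nearest was 15.5 kb above (score 118, rank 40.1%), in a region with replicate 2 (292). SPRY4 is on the minus strand and 14.6 kb long in RefSeq, and its position is rounded to 10 kb. Peaks at these distances therefore cannot be placed inside the gene, at its start or outside it. FOXA1 had 4 peaks on each side, the nearest 19.1 kb below (score 135). The nearest peak of replicate 1 lay 32.4 kb above (score 104, rank 77.9%), in a region with replicate 2 (765), H2087 (332) and FOXA1 (247) and without H1819. Apart from the common top region, H1819 and H2087 shared no region of this window. Little sharing is usual for this pair. In the window 1 of 5 H1819 peaks overlapped H2087, 20% against 22.8% of the whole H1819 list. In the other direction it was 1 of 9 H2087 peaks, 11.1% against 21.0%.

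DUSP6, the cytoplasmic ERK phosphatase, was read over a window of 1000 kb, chr12:88000000-89000000, with the gene at about 88.266 to 88.270 Mb. The window held 7 peaks of H3122 replicate 1, 72 of replicate 2, 7 of H1819, 10 of H2087 and 62 of FOXA1. Relative to the list mean these were 2.89-fold (1.16 to 5.95), 4.61-fold (3.61 to 5.81), 1.60-fold (0.643 to 3.30), 2.13-fold (1.02 to 3.92) and 4.50-fold (3.45 to 5.77). The value of H1819 was the lowest and that of replicate 2 the highest. Here too the window was chosen on these peaks, and the intervals are not used to rank the lists. Of 3067 tiles of 1000 kb, 0.0652% held at least as many replicate 2 peaks and 0.130% as many FOXA1 peaks. For replicate 1 the share was 6.85%, for H2087 17.3% and for H1819 25.0%. Within 110 kb of 88.27 Mb there were 2, 22, 3, 3 and 17 peaks in the order above, or 3.75, 6.41, 3.12, 2.91 and 5.61 times the list mean, against 2.64, 4.11, 1.17, 1.91 and 4.19 times in the rest of the window. The values of replicate 1, H1819 and H2087 rest on 2 or 3 peaks near the gene. The density did not fall off evenly from the gene: the 100 kb from 88.1 to 88.2 Mb held 13 FOXA1 and 13 replicate 2 peaks, and the 100 kb with the gene held 9 and 14.

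Between DUSP6 and ERRFI1, whose positions are rounded to 1 kb, only DUSP6 had a peak within 1 kb of its stated start in every list. The positions of SPRY2 and SPRY4 are single points rounded to 10 kb and not starts, so these genes were not compared. The region chr12:88270079-88271229 begins at about the upper end of the gene, which is its start, since the gene is on the minus strand. Its score was 111 in replicate 1 (rank 80.6%), 737 in replicate 2 (rank 94.1%), 167 in H1819 (rank 63.8%), 449.7 in H2087 (rank 83.3%) and 652 for FOXA1 (rank 90.0%). A further region 23.8 kb upstream, chr12:88293028-88294671, held replicate 1 at 350.2 (rank 99.0%), replicate 2 at 1213, H1819 at 243, H2087 at 2183.5 (rank 98.7%) and FOXA1 at 727. It was the highest of the window in replicate 1 and in H2087. The highest replicate 2 peak, at a score of 3100 (rank 99.9%), lay 126 kb downstream at chr12:88142944-88144373. That region held replicate 1 at 206, H1819 at 168, H2087 at 341 and FOXA1 at 92.7 (rank 30.3%). H1819 was highest 223 kb upstream, at 788 (rank 95.9%), where replicate 2 scored 600.2, FOXA1 77.2, and replicate 1 and H2087 had no peak. FOXA1 was highest 159.5 kb downstream, at 2323 (rank 99.2%), where replicate 2 scored 1080.3 and replicate 1 58.65, and H1819 and H2087 had no peak. In RefSeq the gene is overlapped by the readthrough POC1B-DUSP6, with KITLG next on the downstream side and POC1B and GALNT4 on the upstream side.

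DUSP4, the nuclear phosphatase, has no position in the choice of members, and its window, chr8:29150000-29370000, is described from its middle. The window held 1 peak of H3122 replicate 1, 12 of replicate 2, 6 of H1819, 0 of H2087 and 8 of FOXA1. Relative to the list mean these were 1.87-fold (0.0475 to 10.4), 3.50-fold (1.81 to 6.11), 6.23-fold (2.29 to 13.6), 0-fold (at most 3.58) and 2.64-fold (1.14 to 5.20). Of the 220 kb tiles, 34.0% held at least as many replicate 1 peaks, 3.81% as many replicate 2 peaks, 2.22% as many H1819 peaks and 9.40% as many FOXA1 peaks. An H2087 list with no peak in such a tile was common, with 62.7% of tiles, and 1.03 peaks were expected in the window at the list mean. Of the 311 tiles with at least 6 H1819 peaks, 15.8% held no H2087 peak.

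All 6 H1819 peaks at DUSP4 lay below the middle of the window. So did the sole replicate 1 peak, 7 of 8 FOXA1 peaks and 7 of 12 replicate 2 peaks. The highest H1819 peak, at chr8:29233547-29234360, scored 1037 (rank 97.7%), with replicate 2 at 463 and replicate 1 at 72.7 and no FOXA1 peak. The highest replicate 2 peak lay 6.13 kb below the middle, at 477 (rank 88.2%), with H1819 at 71.8, whose peak nearest to the middle this is. The highest FOXA1 peak lay 19.0 kb below the middle, at 379 (rank 80.9%), with no NKX2-1 peak of any list. Nearest to the middle were a replicate 2 peak 1.22 kb above it (117, rank 42.0%) and a FOXA1 peak 4.42 kb above it (212, rank 65.8%). No region was held by all 4 NKX2-1 lists here or in the SPRY2 window. The neighbours in RefSeq are KIF13B below and SARAF above.

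**Figure D2:**
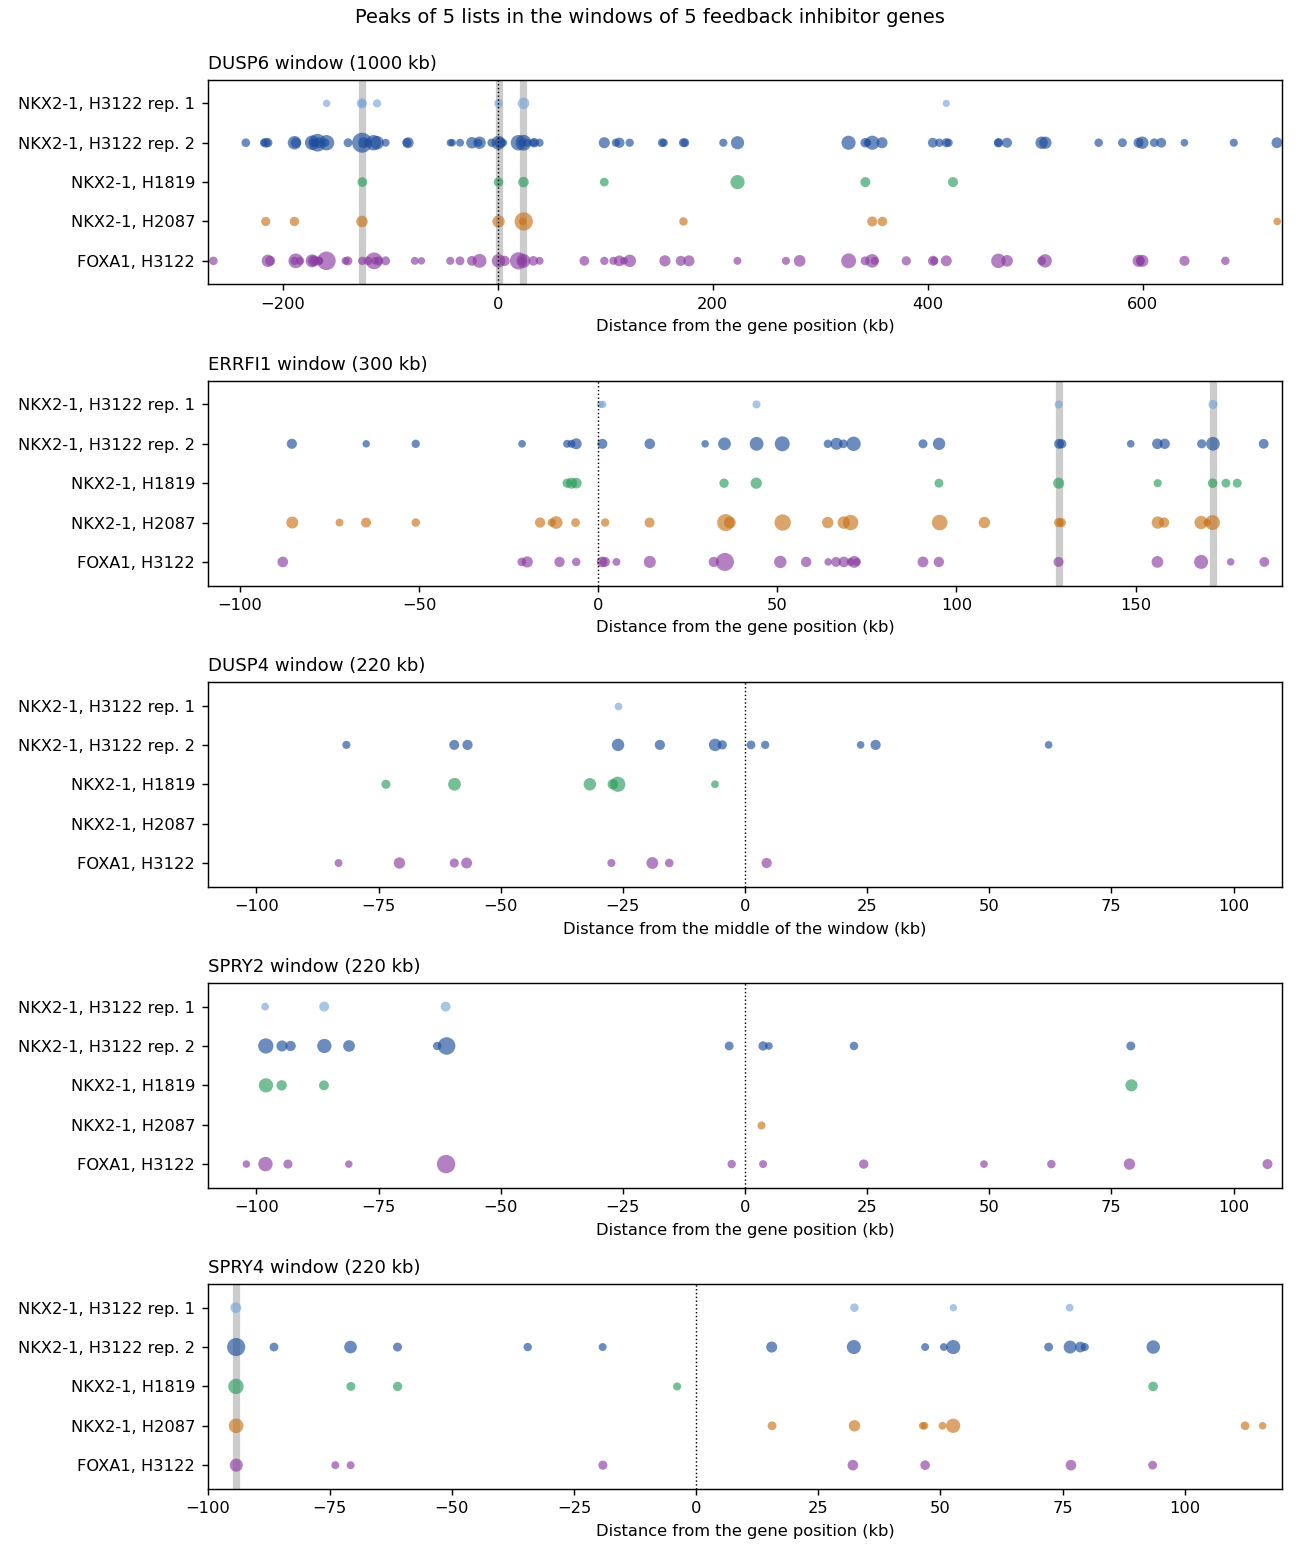
Positions of all 353 peaks by distance (kb) from the gene position, or from the middle of the window for DUSP4, with 1 row per list; a larger point is a higher score, a dotted line marks the gene position and grey bars mark the 6 regions in all 4 NKX2-1 lists. The H2087 row is empty at DUSP4, has 1 point at SPRY2 and 25 at ERRFI1.

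Because the lists differ in length, the numbers were also taken from the 7469 highest-scoring peaks of each list. ERRFI1 then had 5, 7, 10, 18 and 4 peaks of replicate 1, replicate 2, H1819, H2087 and FOXA1. DUSP6 had 7, 17, 7, 6 and 16, and SPRY4 had 4, 6, 4, 3 and 1. SPRY2 had 3, 3, 4, 0 and 2, and DUSP4 had 1, 2, 5, 0 and 0. H2087 then had the most peaks of the 5 lists at ERRFI1, where replicate 2 and FOXA1 had more as deposited, and it had none at SPRY2 and DUSP4. Relative to the common mean, H1819 was then 13.7-fold at ERRFI1 and 2.89-fold at DUSP6, replicate 2 was 7.01-fold at DUSP6 and 11.25-fold at SPRY4, and FOXA1 was 0-fold at DUSP4.

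Of the 156 merged NKX2-1 regions in the windows, 6 had a peak in all 4 NKX2-1 lists, which is 3.85%, against 962 of 59685 regions or 1.61% in the series. DUSP6 held 3 of them, ERRFI1 held 2 and SPRY4 held 1. Besides the regions described above, ERRFI1 had a region 129 kb upstream, chr1:8137167-8138010, with scores of 86.2 in replicate 1, 189 in replicate 2, 294 in H1819, 162 in H2087 and 200.3 for FOXA1. Its other such region, 171 kb upstream at chr1:8179844-8181117, scored 139.99 in replicate 1, 685 in replicate 2, 165 in H1819 and 973 in H2087. FOXA1 had no peak in that last region and had one in the other 5. Requiring 1 peak in each line, from either H3122 list, left 10 regions in the windows, or 6.41%, against 4.61% of all regions; 3 of them were at DUSP6, 6 at ERRFI1, 1 at SPRY4 and 0 at SPRY2 and DUSP4. The windows were chosen for their dense peaks, and the part of density in these shares was not tested.

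**Figure D3:**
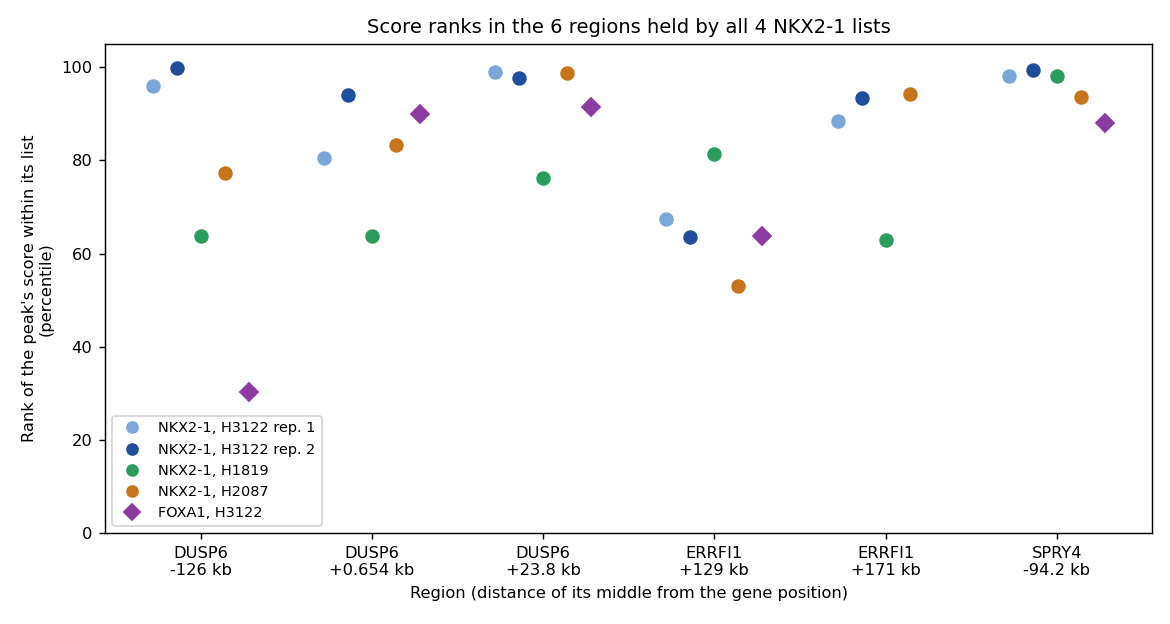
Rank of the peak's score within its list (percentile, 100 is the top) in the 6 regions held by all 4 NKX2-1 lists, named by gene and distance from the gene position, with FOXA1 as diamonds. All 4 NKX2-1 ranks lie above 90 at SPRY4 −94.2 kb, FOXA1 lies at 30.3 at DUSP6 −126 kb, and there is no FOXA1 point at ERRFI1 +171 kb.

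The remaining regions were mostly of 1 list. Replicate 2 alone held 84 of the 156 regions, 53.8% in the windows against 52.3% of all 59685 regions. H2087 alone held 10, 6.41% against 7.27%, and H1819 alone 7, 4.49% against 10.0%. Replicate 1 alone held 0, against 2.15% of all regions. Regions of H3122 and H2087 without H1819 numbered 24, 15.4% against 11.1%. Of these 12 were at ERRFI1, 6 at DUSP6, 5 at SPRY4, 1 at SPRY2 and 0 at DUSP4. Regions of H3122 and H1819 without H2087 numbered 16, 10.3% against 7.16%, with 3 in the 1000 kb window of DUSP6, 3 in the 300 kb of ERRFI1, and 3 at DUSP4, 4 at SPRY2 and 3 at SPRY4 in 220 kb each. There were 0 regions of H1819 and H2087 without H3122, a class that held 0.431% of all regions.

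Overlap of NKX2-1 between the lines was as follows. Of the H1819 peaks in the windows, 26 of 33 lay on a peak of replicate 2, which is 78.8% (62.2 to 89.3 by the Wilson method), against 53.4% of the whole H1819 list. Of the H2087 peaks, 35 of 45 did, 77.8% (63.7 to 87.5), against 67.7%. Both shares were above those of their whole lists, but the interval of the H2087 share includes its whole-list value. The intervals treat neighbouring peaks of 1 list as independent, so they serve as no test. The part of peak density in these shares was not tested. All 20 replicate 1 peaks overlapped replicate 2, 100% (83.9 to 100), against 81.7%. H1819 and H2087 shared 10 of 33 H1819 peaks, 30.3% (17.4 to 47.3) against 22.8%, and 10 of 45 H2087 peaks, 22.2% (12.5 to 36.3) against 21.0%. These intervals include the values of the whole lists. Counted against replicate 1 in place of replicate 2, the shares were 30.3% for H1819 and 17.8% for H2087. The whole-list shares with replicate 1 were not computed, so these 2 values have no background. With the 7469 best peaks of each list, 14 of 30 H1819 peaks in the windows overlapped replicate 2, 46.7% (30.2 to 63.9) against 25.0% of all, and 13 of 27 H2087 peaks did, 48.1% (30.7 to 66.0) against 28.6%.

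The share of peaks with both factors in H3122 was somewhat higher in the windows than over the lists as deposited, with intervals that include the whole-list values. Of the replicate 2 peaks in the windows, 72 of 139 overlapped a FOXA1 peak, 51.8% (43.6 to 59.9), against 47.8% of the whole list. Of the FOXA1 peaks, 73 of 116 overlapped replicate 2, 62.9% (53.9 to 71.2), against 54.5%. For replicate 1 the share with FOXA1 was 13 of 20, 65% (43.3 to 81.9), against 50.3%. At equal list lengths (7469 best peaks) the difference from the whole list was larger for FOXA1: 16 of 23 FOXA1 peaks in the windows overlapped replicate 2, 69.6% (49.1 to 84.4), against 38.3% of all. In the other direction 16 of 35 replicate 2 peaks overlapped FOXA1, 45.7% (30.5 to 61.8), against 38.1%. As deposited, the share of replicate 2 peaks with FOXA1 was 40 of 72 at DUSP6, 16 of 27 at ERRFI1, 3 of 12 at DUSP4, 6 of 12 at SPRY2 and 7 of 16 at SPRY4. It went with the score: 48 of 73 peaks at or above the list median had FOXA1, 65.8% against 62.1% in the list, and 24 of 66 below the median, 36.4% against 33.5%. The NKX2-1 peaks of the other lines overlapped the H3122 FOXA1 list more often in the windows than over their whole lists. The shares were 18 of 33 for H1819, 54.5% (38.0 to 70.2) against 28.7%, and 22 of 45 for H2087, 48.9% (35.0 to 63.0) against 31.6%. FOXA1 was mapped in H3122 alone, so these shares compare lines with each other. FOXA1 peaks covered 4.02% of the windows and 0.830% of the genome, and replicate 2 peaks 5.59% and 1.12%. The part of this density in the shares was not tested.

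**Figure D4:**
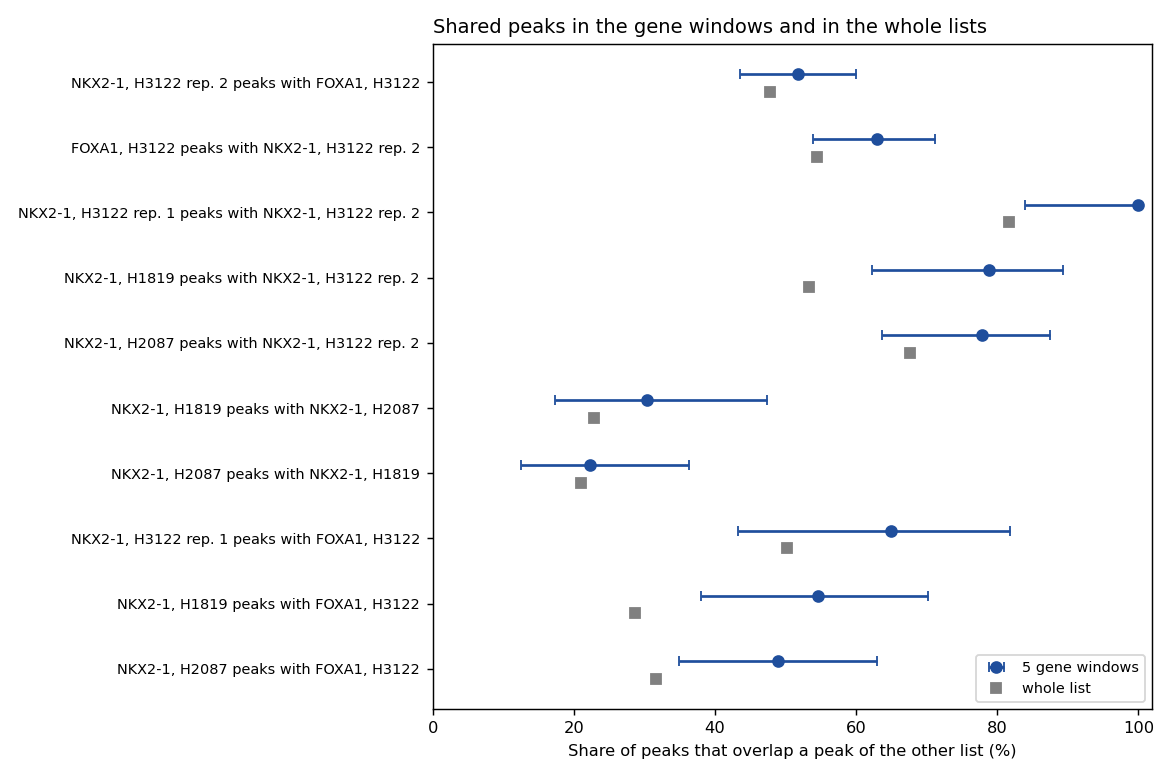
Share of peaks (%) that overlap a peak of another list by at least 1 bp, in the 5 gene windows (circles, Wilson 95% intervals) and over the whole list (squares), for 10 ordered pairs of lists. In each pair the share in the windows was above that of the whole list. The intervals treat neighbouring peaks of 1 list as independent and serve as no test.

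FOXA1 without NKX2-1 was also present at each gene. In the windows 41 of 116 FOXA1 peaks had no NKX2-1 peak of any list, 35.3%, against 43.5% of the whole FOXA1 list. They numbered 22 of 62 at DUSP6, 8 of 26 at ERRFI1, 4 of 8 at DUSP4, 6 of 12 at SPRY2 and 1 of 8 at SPRY4. Taking the highest of each window, DUSP4 had one at 379, DUSP6 one 281 kb upstream of the gene (362, rank 80.0%) and ERRFI1 one 19.8 kb downstream of its start (301.5, rank 75.6%). At SPRY2 the highest lay 107 kb above the gene position (199, rank 63.5%), and the sole one at SPRY4 lay 73.9 kb below it (77.8, rank 19.9%).

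Other feedback genes of the pathway were described by the density of the cytogenetic band named for them, since no hg18 gene positions were used here. Whether each gene lies within the hg18 borders of its band was not checked. They were 12 genes: the Sprouty relatives SPRY1, SPRED1 and SPRED2, the phosphatases DUSP1, DUSP2, DUSP5, DUSP7 and DUSP10, the ubiquitin ligase CBL, the receptor inhibitor LRIG1, and RASA1 and NF1, which switch off RAS. A band was above the mean of replicate 1 for 6 of the 12 genes, against 53.0% of 755 bands of at least 1 Mb. The counts were 9 of 12 against 58.3% for replicate 2, 10 of 12 against 50.3% for H1819, 8 of 12 against 48.2% for H2087 and 9 of 12 against 55.5% for FOXA1. The medians over the 12 bands lay between 0.970 and 1.37 times the list mean, and those over all bands between 0.941 and 1.12 times. Of the single bands, SPRED2 in 2p14 was at 2.72 times the mean in H2087 and 1.78 in replicate 2, and DUSP5 in 10q25.2 at 2.21 in H1819 and 2.13 in H2087. DUSP1 in 5q35.1, a nuclear phosphatase, was below the mean in all lists but H1819. The band taken for DUSP7, 3p21.2, is only 0.3 Mb long in hg18 and held at most 4 peaks in any list, so its values say little about the gene. It is too short for the 755 bands set beside the counts, yet it is among the 12. There it counted as above the mean in H1819 (2.28 times) and H2087 (2.84 times) and below it in the other lists.

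The bands of the 5 genes, which the choice of members had used in part, had medians of 1.04 times the list mean in H2087 to 2.30 times in replicate 2. ERRFI1 in 1p36.23 ran from 2.69 times the mean in replicate 2 to 4.57 in H2087, and SPRY4 in 5q31.3 from 1.61 for FOXA1 to 3.69 in H2087. DUSP6 in 12q21.33 was at 2.98 for FOXA1 and 2.58 in replicate 2, and at 1.11 in H1819 and 1.04 in H2087. The band of SPRY2, 13q31.1, was at 0.196 in H2087, the lowest of these values, and at 1.70 for FOXA1. The band of DUSP4, 8p21.1 in hg18, was at 2.09 in H1819 and at 1.02 in H2087. The H2087 density was 0.970 times the mean in the SPRY2 window and 0.196 in the 8.7 Mb band around it, and 0 in the DUSP4 window and 1.02 in its band.

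The windows have fixed borders, and their ends fall between peaks. The last peak before the DUSP6 window was a FOXA1 peak with a score of 68.5, and the first inside was a FOXA1 peak of 104. At its upper border the last peak inside was an H2087 peak of 64.6, and the first outside was an H2087 peak of 3018 (rank 99.4%) 739 kb upstream of the gene position. The ERRFI1 window was bordered by a replicate 2 peak of 159 outside and a FOXA1 peak of 251 inside at the lower end, and by FOXA1 peaks of 185 inside and 328 outside at the upper end. At DUSP4 the first peaks were FOXA1 peaks of 199 outside and 77.1 inside at the lower end, and replicate 2 peaks of 67.9 inside and 221 outside at the upper end. At SPRY2 they were a replicate 2 peak of 517 outside and a FOXA1 peak of 60.2 inside, then a FOXA1 peak of 199 inside and a replicate 2 peak of 335 outside. At SPRY4 an H2087 peak of 65.9 lay outside and the common top region, first in replicate 1 at 273, inside. The upper end of that window had H2087 peaks of 61.6 inside and 113 outside.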

How the data were processed

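Chromatin was cross-linked with formaldehyde, sheared by sonication and sequenced with or without precipitation, per the labels' protocols. Reads were aligned with Bowtie to hg18 and MACS 1.4.0 made the peak calls, per the submitters' processing notes. The authors deposited 1 peak list per precipitated library, with a position and a score for each peak; its scale is not given in the sources used here, nor are the calling threshold, the read depth and the input used for each list. No column of values was left unassigned to a sample. The 4 input libraries were not analysed here.

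Windows were taken as fixed coordinates. Positions are 1-based. A shared peak overlaps one of the other list by 1 bp or more, and NKX2-1 peaks were merged by the same rule. Density was set against the mean of the list and against tiles of the same length over the assembled chromosomes (lengths from GenomeInfoDb 1.38.1, bands from circlize 0.4.16, R 4.3.3). Numbers have exact Poisson and shares Wilson 95% intervals. With 1 list per group apart from the H3122 pair, no test was run. Overlap code (Python 3.11.15, numpy 2.4.6, pandas 2.3.3, scipy 1.17.1, matplotlib 3.10.9) was tested on simulated data. Distances run from the middle of a peak or region to the gene position to which the window was set, taken at its upper end where a range was given and rounded to 1 kb (DUSP6, ERRFI1) or 10 kb (SPRY2, SPRY4). Gene order, strand and promoters came from RefSeq on GRCh38.p14; hg18 sequence and annotation were not used here.

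The members, lists of genes, motifs and windows were chosen with earlier results of these data known. In each window the peaks named are chiefly the regions in all 4 NKX2-1 lists, each list's highest peak and its nearest to the gene position, the highest FOXA1 peak without NKX2-1 and the first peaks on either side of a border. Alternatives changed the score minimum, the overlap, the window length, the list lengths and the lists and windows used.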

Additional observations from a re-analysis of the deposited data

How the results depend on the processing

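All values are descriptions of single lists, and depth is not known. The 12 main results were recomputed under 73 alternatives. Whether a value changed direction against its whole list was not computed. Of these values, 52 stayed within the counting error of the main value or within 1.5 times of it, and 21 moved further. With windows of 220 kb for all genes, the regions in all 4 NKX2-1 lists came to 3, and the peaks to 28 in H2087, 67 for FOXA1, 13 in replicate 1 and 80 in replicate 2. Without the DUSP6 window they came to 3 regions, 54 FOXA1 peaks, 13 peaks of replicate 1 and 67 of replicate 2. With lists of equal length there were 27 H2087, 23 FOXA1 and 35 replicate 2 peaks, and the shares overlapping replicate 2 were 46.7% for H1819, 48.1% for H2087 and 80% for replicate 1. Over the whole of these shortened lists the shares were 25.0%, 28.6% and 46.3% in the same order. A score of at least 100 left 8 peaks of replicate 1. Leaving out 1 H3122 replicate gave 6 to 10 regions in all remaining lists. With replicate 1 standing for H3122, 11.21% of FOXA1 peaks, 30.3% of H1819 peaks and 17.8% of H2087 peaks were shared with it. Whole-list shares with replicate 1 were not computed. Of its own peaks, 65% had FOXA1, against 51.8% for replicate 2. Replicate 1 is the shorter list and has narrower peaks, and the part of either in these shares was not tested. No paired analysis was possible because the numbers that replicates share in the labels join NKX2-1 lists to inputs, which were not analysed here, and no result comes from a test.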

Other observations

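Scores of overlapping peaks were set side by side as a description over peaks, which share libraries and neighbourhoods. In the windows, Spearman's rho between replicate 2 and replicate 1 was 0.60 over 18 pairs, against 0.43 over 5988 pairs in the whole list. Between replicate 2 and H2087 it was 0.59 over 34 pairs, against 0.37 over 9618. Between replicate 2 and FOXA1 it was 0.41 over 72 pairs, against 0.32 over 22972. Between replicate 2 and H1819 it was 0.17 over 26 pairs, against 0.31 over 7062.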
